A study of Mus musculus with 6 samples.

Results

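The genes described here are 9 enzymes that lengthen and desaturate fatty acids, Fads1, Fads2, Scd2, Elovl1, Elovl2, Elovl3, Elovl5, Hacd3 and Tecr. They were chosen by symbol from the 39179 genes counted in each library, as desaturases, elongases and elongation partners, with Scd1 and Elovl6 set aside from the start and a further list of such enzymes described after the members. The study counted polyadenylated RNA in livers of C57BL/6J mice put on a high-fat diet (60% of energy from fat) at 5 weeks of age and kept on it for 21 weeks. Staining of the liver with haematoxylin and eosin then divided the obese animals into isolated steatosis, in which hepatocytes store fat, and nonalcoholic steatohepatitis (NASH), in which inflammation and cell injury are added. Liver from 3 mice of each class was sequenced, and every animal in both classes had the same diet, with no other treatment stated. The classes were assigned and not induced, the labels state neither sex nor time of day, and a lean group was not analysed here. That the 6 samples are separate mice is implied by the labels and not stated, and p-values measure the spread between these samples, which may be technical.

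Long-chain fatty acids are extended in the endoplasmic reticulum by a repeated cycle. An elongase of the Elovl family condenses an acyl-CoA with malonyl-CoA, Hsd17b12 reduces the product, a dehydratase of the Hacd family removes water, and Tecr carries out the last reduction. Desaturases add double bonds between rounds, with electrons passed on by cytochrome b5. In liver, Fads2 and Fads1 act in turn on the dietary essential fatty acids linoleate and alpha-linolenate, and Elovl5 and Elovl2 lengthen the intermediates, which yields arachidonate and the precursors of docosahexaenoate. Elovl1 and Elovl3 act mainly on saturated and monounsaturated chains, and Scd2 is a relative of the hepatic stearoyl-CoA desaturase Scd1.

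The libraries held 13909238 to 18002095 counts, of which 62.0% to 83.9% fell on mitochondrially encoded genes. Reads at rRNA-like loci took 8.96% of steatosis 2 and 22.3% of NASH 3, against 0.596% to 1.06% of the other libraries. The remaining genes held 3378730 to 5149189 counts in steatosis and 2185922 to 2719869 in NASH. Levels below are CPM, counts relative to a library size scaled with TMM factors. All 9 members passed the filter on low counts.

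The comparison asks which of these enzymes differ in RNA level between livers with NASH and livers with fat storage alone. Fads2, the first and usually limiting desaturase of the polyunsaturated pathway, was the single member called higher in NASH, at 1.94-fold. Tested with edgeR (quasi-likelihood fit, p adjusted after Benjamini and Hochberg over all genes), 1 of the 9 members was called higher in NASH at an adjusted p under 0.05, 0 lower, and 8 did not pass. Over all 11375 tested genes 1.49% were called higher, 3.33% lower and 4.82% in either direction. Before adjustment 5 members had a p under 0.05 (4 higher and 1 lower), or 55.6%, against 23.2% of all tested genes. The groups did not overlap in CPM for 5 members, Fads1, Fads2, Elovl2, Hacd3 and Tecr, again 55.6%, against 29.3% of all tested genes. Log2 fold changes of NASH over steatosis were above 0 for 7 members and below 0 for 2, with a median of 0.71 beside 0.01 for all tested genes. The members were picked with earlier results in view, so these shares are descriptions.

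**Figure D1:**
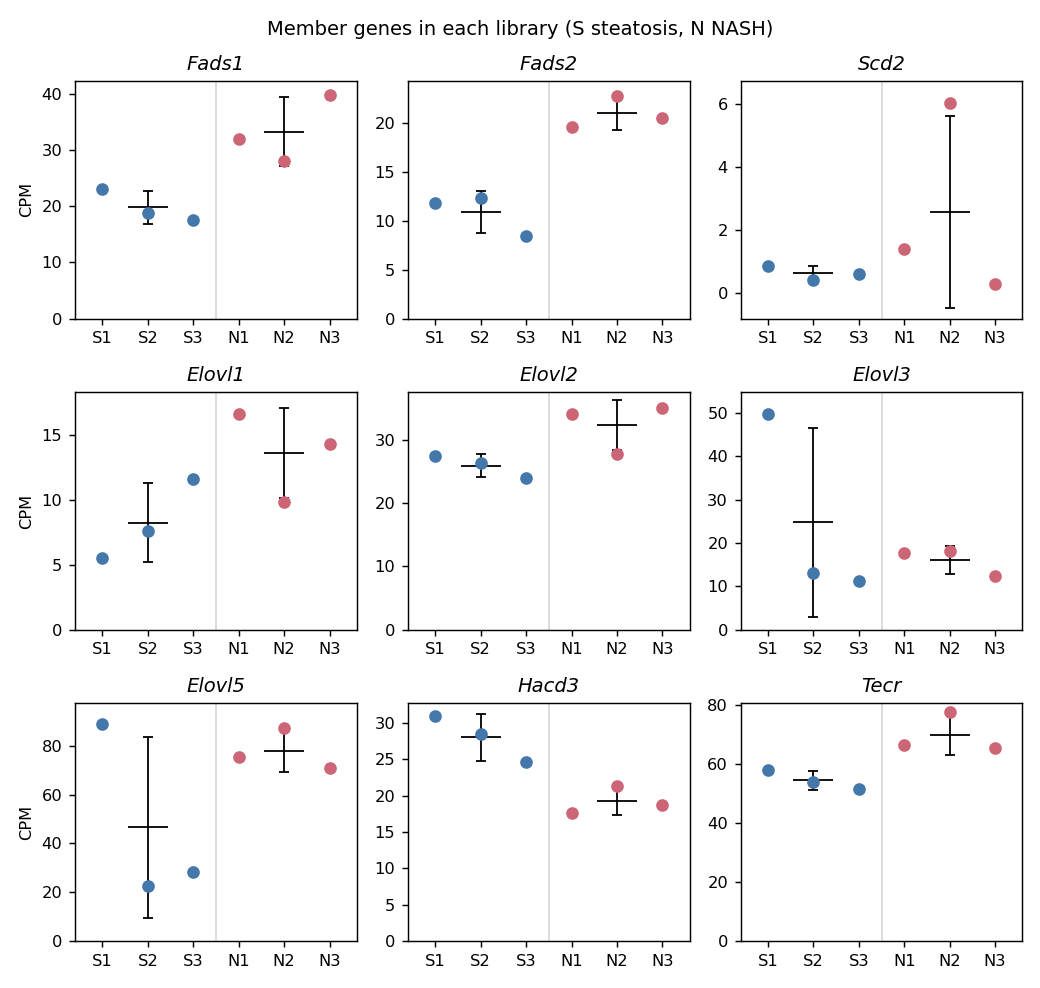
CPM of the 9 members in each of the 6 libraries (S1 to S3 steatosis, N1 to N3 NASH; each panel has its own linear axis, and the bar with whiskers is the mean ± SD of 3 libraries). The groups are separate for Fads1, Fads2, Elovl2, Hacd3 and Tecr, while Elovl3 and Elovl5 have 1 steatosis library far above the other 2, and Scd2 has 1 NASH library far above.

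Fads2 lies on chromosome 19 (GRCm38, 10062765 to 10101746, minus strand; gene coordinates are those of GENCODE M21). It measured 11.8, 12.3 and 8.42 CPM in steatosis 1, 2 and 3 and 19.6, 22.8 and 20.5 CPM in NASH 1, 2 and 3. Every NASH library lay above every steatosis library, and the highest steatosis value, 12.3, was well below the lowest NASH value, 19.6. The means were 10.9 ± 2.13 and 21.0 ± 1.67 CPM (SD over 3 libraries each). On the log2 scale the rise was 0.95 with an SE of 0.20 (adjusted p = 0.0286 by edgeR). The call was lost when any 1 library was left out. Adjusted p by edgeR was then 0.0758 (steatosis 1 omitted), 0.0781 (steatosis 2), 0.056 (steatosis 3), 0.0611 (NASH 1), 0.0764 (NASH 2) or 0.0592 (NASH 3), while the log2 fold change stayed between 0.82 and 1.05. It was also lost without both libraries rich in rRNA-like reads, steatosis 2 and NASH 3 (1.07, adjusted p = 0.151 by edgeR). The call held under each of the other tests, scalings and filters and with the replicate number as a block.

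Fads1, which introduces the next double bond after a round of elongation, sits 81142 bases from Fads2 on the opposite strand (chromosome 19, 10182888 to 10196877). Its values were 23.0, 18.8 and 17.5 CPM in steatosis and 32.0, 28.0 and 39.9 CPM in NASH. The groups were again separate, with NASH 3 the highest. The log2 difference was 0.75 (SE 0.21, adjusted p = 0.0692 by edgeR) and did not pass. DESeq2 called it (adjusted p = 0.0284), as did edgeR on counts scaled to genes other than mitochondrial and rRNA-like ones without TMM (adjusted p = 0.042), a scaling under which the median over all genes went from 0.01 to 0.12.

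Because both desaturases act in the same chain, their ratio was also taken within each library, which removes the library scaling. The log2 ratio of Fads2 over Fads1, per kilobase of exon and with 0.5 counts added, was -0.41, -0.06 and -0.51 in steatosis and -0.16, 0.25 and -0.41 in NASH. The groups overlapped, and the means differed by 0.22 (two-sided exact permutation p = 0.5, adjusted over the 5 ratios examined 0.8; 3 against 3 libraries cannot give less than 0.1). A shift between both desaturases was not detectable with these libraries.

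Scd2, the desaturase that predominates in brain and in early life, had few counts in these livers. There were 14, 7 and 16 in steatosis and 20, 90 and 3 in NASH, or 0.862, 0.420 and 0.594 CPM and 1.39, 6.03 and 0.272 CPM. NASH 2 alone was high, and NASH 3 was the lowest of the 6. The log2 fold change of 2.07 (SE 0.78, adjusted p = 0.146 by edgeR) did not pass, and it was 0.50 once NASH 2 was omitted. With no filter on low counts edgeR called it (adjusted p = 9.38e-06). On a per-length basis Scd2 stood far below Scd1, with log2 ratios from -8.60 to -8.36 in steatosis and of -8.96, -6.65 and -10.92 in NASH 1, 2 and 3. The mean ratio differed by -0.33 between the groups (exact permutation p = 0.7). Of its 50-base stretches 3.97% also occur in other genes, among them Scd1, Scd3 and Scd4, and the microRNA gene Mir5114, which shares 61 exon bases with it, had 0 counts in every library. No 150-base stretch of the transcripts of any of the 9 members, the length of a read, was found in another gene.

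Among the elongases, Elovl5, which acts on polyunsaturated chains of intermediate length, was split within the steatosis group. It lies on chromosome 9 (77917364 to 77984519, plus strand), and steatosis 1 held 3.98 times the level of steatosis 2. The bases before its start are reference sequence, not read from these libraries, and any part of them in that split was not tested. The RefSeq window (GRCm38.p6, chr9:77917115-77917363, plus strand, read towards the gene) is printed with E-box letters (CACGTG) and CCAAT letters (either strand, ATTGG on the other) in capitals.
Elovl5: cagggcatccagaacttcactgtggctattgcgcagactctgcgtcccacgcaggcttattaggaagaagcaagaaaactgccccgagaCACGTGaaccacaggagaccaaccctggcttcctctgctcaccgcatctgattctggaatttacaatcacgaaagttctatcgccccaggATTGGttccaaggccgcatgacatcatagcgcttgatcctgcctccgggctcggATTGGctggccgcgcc
The E-box began 161 bases and the CCAAT letters 71 and 17 bases before the start site. Over the 250 bases before the start in all 32851 RefSeq windows, 6.02% hold CACGTG and 33.8% hold CCAAT on either strand. Such matches describe letters and not bound factors.

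Elovl5 measured 89.1, 22.4 and 28.2 CPM in steatosis 1, 2 and 3 and 75.5, 87.5 and 70.9 CPM in NASH 1, 2 and 3. The NASH libraries were close together, steatosis 2 and 3 were far below them, and steatosis 1 was above all of them. The means were 46.6 ± 37.0 and 77.9 ± 8.55 CPM (SD over 3 libraries each), and the log2 difference of 0.74 with an SE of 0.45 did not pass (adjusted p = 0.349 by edgeR). It was 1.63 with an SE of 0.249 once steatosis 1 was omitted, and was then called (adjusted p = 0.0243 by edgeR). It was 0.41 with steatosis 2 omitted and 0.50 with steatosis 3 omitted.

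Elovl2, which takes the chains one round further, differed less between libraries than Elovl5 or Elovl3 did. Its values were 27.5, 26.4 and 23.9 CPM in steatosis and 34.0, 27.8 and 35.0 CPM in NASH. The groups were separate, but NASH 2 exceeded steatosis 1 by little, and the log2 fold change of 0.32 (SE 0.19, adjusted p = 0.352 by edgeR) did not pass. The log2 ratio of Elovl5 over Elovl2 was 1.87, -0.06 and 0.41 in steatosis and 1.32, 1.82 and 1.19 in NASH. Steatosis 1 again stood with the NASH libraries, and the difference of the means of 0.71 did not exceed the spread (exact permutation p = 0.4, adjusted 0.8).

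Elovl3, an elongase of saturated and monounsaturated chains that is strongly regulated in mouse liver, had the same library apart. It lies on chromosome 19 (46131897 to 46135694, plus strand) and measured 49.9, 13.2 and 11.2 CPM in steatosis 1, 2 and 3 and 17.7, 18.2 and 12.3 CPM in NASH 1, 2 and 3. Steatosis 1 held 3.77 times the level of the next steatosis library, and the other 5 libraries lay within 11.2 and 18.2 CPM. The log2 fold change was -0.62 (SE 0.49, adjusted p = 0.489 by edgeR). It turned to 0.41 with steatosis 1 omitted (adjusted p = 0.41 by edgeR), so these libraries give no direction for Elovl3. It shares 10 exon bases with Pitx3 on the opposite strand, which had at most 4 counts in a library.

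Elovl1, a widely expressed elongase of very long saturated chains, measured 5.54, 7.61 and 11.6 CPM in steatosis and 16.6, 9.84 and 14.3 CPM in NASH. NASH 1 and NASH 3 were the highest, but NASH 2 lay below steatosis 3. The log2 fold change of 0.71 (SE 0.29, adjusted p = 0.176 by edgeR) did not pass, and it ranged from 0.51 to 1.06 with single libraries left out. Elovl1 shares 53 exon bases with Cdc20 on the opposite strand, which had 15 counts in NASH 2 and 0 to 4 elsewhere. Within libraries, neither the log2 ratio of Elovl1 over Elovl5 (NASH minus steatosis -0.27, exact permutation p = 0.8) nor that of Elovl3 over Elovl1 (-1.05, exact permutation p = 0.5) separated the groups.

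**Figure D2:**
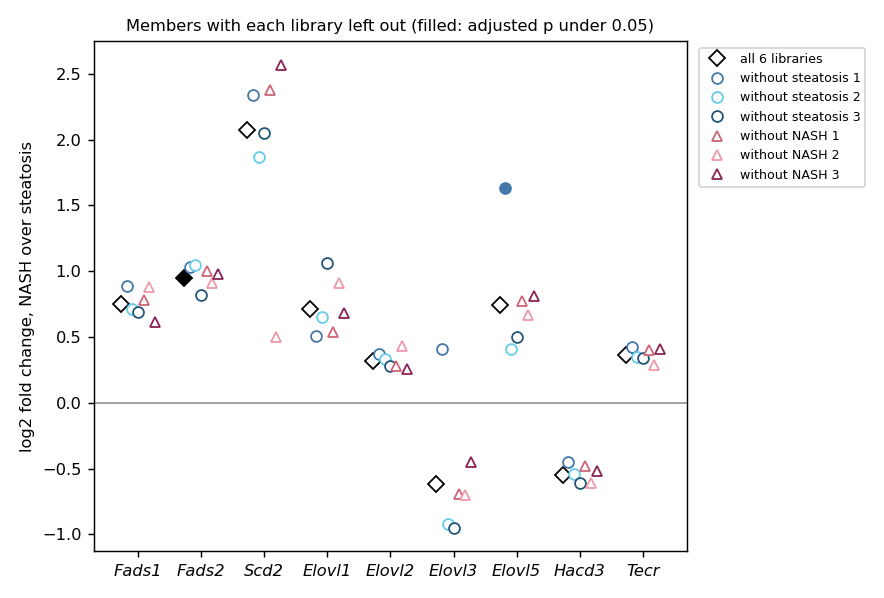
Log2 fold change of NASH over steatosis for each member with all 6 libraries (diamond) and with 1 library left out in turn (circles, a steatosis library; triangles, a NASH library); filled symbols have an edgeR adjusted p under 0.05. Fads2 is filled only with all 6 libraries, Elovl5 only without steatosis 1, and Elovl3 is above 0 only without steatosis 1.

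The remaining members, Hacd3 and Tecr, encode enzymes of the later steps of the elongation cycle, and their fold changes had opposite signs. Hacd3 encodes a dehydratase of the cycle and lies on chromosome 9 (64986983 to 65021693, minus strand). It measured 31.0, 28.4 and 24.6 CPM in steatosis and 17.6, 21.3 and 18.7 CPM in NASH, so that every NASH library was below every steatosis library. The means were 28.0 ± 3.22 and 19.2 ± 1.91 CPM (SD over 3 libraries each), and the log2 fold change of -0.55 (SE 0.19, adjusted p = 0.114 by edgeR) did not pass. It stayed between -0.61 and -0.43 under the 15 alternatives tried.

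Tecr, the reductase that closes the cycle (chromosome 8, 83571698 to 83607971, minus strand), measured 57.8, 53.9 and 51.4 CPM in steatosis and 66.4, 77.7 and 65.5 CPM in NASH. Here every NASH library was above every steatosis library, with a log2 fold change of 0.36 (SE 0.20, adjusted p = 0.316 by edgeR) that did not pass. It stayed between 0.29 and 0.48 under the same 15 alternatives. Of the 50-base stretches of Tecr 6.18% also occur in predicted genes. The upstream windows of the pair are set side by side as description only, since neither gene was called. Any link between the letters and the levels was not tested. Capitals mark CCAAT on either strand, CACGTG, and the letters CACCCCAC of a sterol regulatory element, the kind of site that SREBP factors bind.
Tecr: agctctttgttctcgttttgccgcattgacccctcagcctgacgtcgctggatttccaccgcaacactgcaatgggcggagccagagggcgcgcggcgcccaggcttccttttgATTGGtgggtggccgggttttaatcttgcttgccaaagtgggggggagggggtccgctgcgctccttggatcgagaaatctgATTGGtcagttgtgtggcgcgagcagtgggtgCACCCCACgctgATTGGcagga
Hacd3: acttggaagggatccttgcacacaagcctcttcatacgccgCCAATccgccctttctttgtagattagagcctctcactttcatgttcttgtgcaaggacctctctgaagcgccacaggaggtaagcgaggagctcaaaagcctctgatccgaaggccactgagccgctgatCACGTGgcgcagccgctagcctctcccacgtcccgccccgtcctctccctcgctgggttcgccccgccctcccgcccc
Both are RefSeq windows of 250 bases on the minus strand (GRCm38.p6, chr8:83594492-83594741 for Tecr and chr9:65021718-65021967 for Hacd3), and the RefSeq start of Tecr lies inside the span that GENCODE M21 gives the gene. The Tecr window holds CACCCCAC 22 bases before the start, letters found in 2.58% of all RefSeq windows on either strand, and CCAAT letters at 136, 54 and 10 bases. The Hacd3 window holds CACGTG at 78 bases and CCAAT at 209 bases. RefSeq windows were matched for 6 members, and in those of Fads2, Elovl1 and Elovl2 the only letters found besides GGGCGG were 1 CCAAT match in an Elovl1 window. Of the Fads2 window, 243 of 250 bases are exon in GENCODE M21 and 7 lie outside. Sequence upstream of the annotated Fads2 gene was therefore hardly searched. An Elovl2 window also holds 51 exon bases. The other searches, the 9 letters TCACNCCAC, which overlap CACCCCAC (1.05% of windows), and TGACGTCA (1.55%), matched in no window of a member, whereas GGGCGG (32.7%) matched in those of Elovl1, Elovl2, Hacd3, Tecr and Fads2 and is not marked.

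Levels of different genes were compared as CPM per kilobase of annotated exon. In steatosis Tecr was highest at 24.8 ± 1.48, ahead of Elovl5 (13.2 ± 10.5), Elovl3 (12.5 ± 11.0), Hacd3 (10.3 ± 1.19), Elovl2 (6.54 ± 0.457), Fads1 (4.12 ± 0.597), Fads2 (3.30 ± 0.647), Elovl1 (3.02 ± 1.12) and Scd2 (0.114 ± 0.0408; SD, n = 3 each). Neighbours in this order overlapped except Hacd3 with Elovl2, Elovl2 with Fads1, and Elovl1 with Scd2. In NASH the order was Tecr (31.9 ± 3.13), Elovl5 (22.1 ± 2.43), Elovl3 (8.15 ± 1.65), Elovl2 (8.14 ± 0.987), Hacd3 (7.08 ± 0.704), Fads1 (6.92 ± 1.27), Fads2 (6.37 ± 0.507), Elovl1 (4.98 ± 1.26) and Scd2 (0.469 ± 0.558; SD, n = 3 each). There Tecr stood clear of Elovl5, Elovl5 clear of Elovl3, and Elovl1 clear of Scd2, while each of the genes from Elovl3 to Elovl1 overlapped the next.

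**Figure D3:**
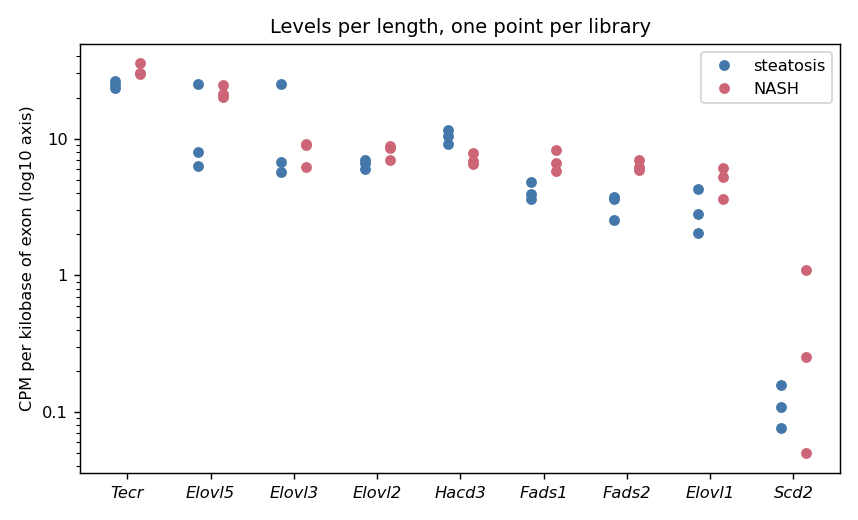
CPM per kilobase of exon of each member on a log10 axis, 1 point per library, steatosis left and NASH right of each position, ordered by the NASH mean. Tecr is highest, Scd2 lies at or below 1.1 in every library, and the steatosis points of Elovl5 and Elovl3 include 1 high value of 25.3 each.

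The other enzymes of desaturation and elongation were taken from a list of 16 genes, of which 10 had enough counts to test and Elovl4, the elongase of ultra-long chains, had 0 in every library. Among the tested ones 2 were called higher and 0 lower by edgeR, with a median log2 fold change of 0.16. In the counts for this list and those below, rose and fell mean called by edgeR. Fads3, a desaturase of the same cluster that lies 2655 bases from Fads2 (the gap between the genes) and acts on sphingoid bases and vaccenate, rose from 1.42, 3.12 and 1.86 CPM to 6.95, 7.17 and 5.08 CPM (log2 fold change 1.60, SE 0.30, adjusted p = 0.0183 by edgeR). Fads3 no longer passed with steatosis 1, NASH 1 or NASH 2 omitted (adjusted p = 0.0701, 0.0587 and 0.0579 by edgeR). Fads2 and Fads3 share 0.152% of the 50-base stretches of Fads2. Scd1, the hepatic stearoyl-CoA desaturase, rose from 310, 153 and 181 CPM to 635, 546 and 550 CPM (adjusted p = 0.0288 by edgeR), a call that held only with all libraries or with steatosis 1 omitted (adjusted p = 0.0553 to 0.127 by edgeR with another one omitted). Elovl6, which lengthens palmitate, had a log2 fold change of 1.45 (SE 0.43, adjusted p = 0.0826 by edgeR) that became 2.23 and passed once steatosis 1 was omitted (adjusted p = 0.0215 by edgeR). DESeq2, the replicate block and the fit with no filter also called Elovl6 (adjusted p = 0.0152, 0.0191 and 3.47e-07).

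The other tested partners of the cycle were not called by edgeR. Hsd17b12, the first reductase, had a log2 fold change of -0.49 (SE 0.23, adjusted p = 0.228 by edgeR). The electron carrier Cyb5a had -0.88 (SE 0.25, adjusted p = 0.0761 by edgeR), and Hacd2, a second dehydratase, 0.01 (SE 0.21, adjusted p = 0.979 by edgeR). DESeq2 and the fit with no filter called Cyb5a lower (adjusted p = 0.00541 and 0.0291). Of the 27 distinct genes tested within 100 kb of a member, 2 were called, Fads3 and Scd1, both desaturases.

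**Figure D4:**
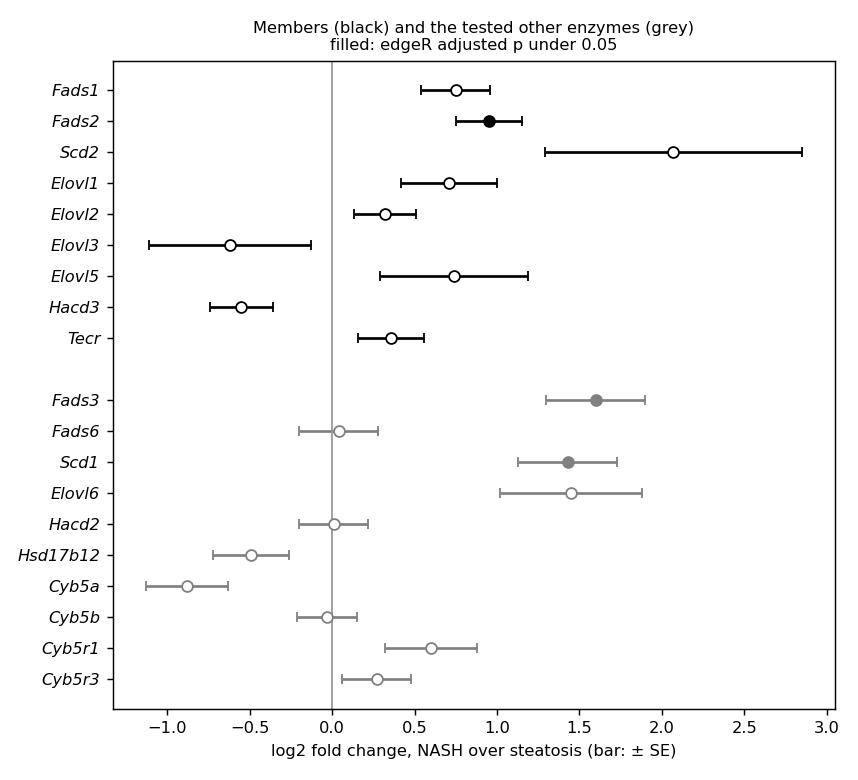
Log2 fold change of NASH over steatosis, ± SE, from edgeR for the 9 members (black) and the 10 tested other enzymes of desaturation and elongation (grey); filled points have an adjusted p under 0.05. Fads2, Fads3 and Scd1 are filled. The members Elovl3 and Hacd3 lie below 0, as do Hsd17b12, Cyb5a and, at -0.03, Cyb5b among the other enzymes.

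Among genes that feed the elongases with malonyl-CoA and NADPH, 5 of 10 rose, 0 fell and 5 did not pass (median log2 fold change 0.87). Acly and Acaca, which make cytosolic acetyl-CoA and malonyl-CoA, rose by 2.65 and 1.76 on the log2 scale (adjusted p = 0.00275 and 0.0183 by edgeR). Pgd, an NADPH source, and Acss2, an acetyl-CoA synthetase, rose by 1.18 and 1.37 (adjusted p = 0.0302 and 0.0307 by edgeR). The fifth was Acacb, chosen after its value was seen (adjusted p = 0.0371 by edgeR). With steatosis 1 or 2 omitted Acaca no longer passed (adjusted p = 0.0543 and 0.0875 by edgeR), and with steatosis 1, steatosis 2, NASH 1 or NASH 2 omitted neither did Pgd (0.0741 to 0.116) or Acss2 (0.0735 to 0.113). With the replicate number as a block Acss2 did not pass either (0.0518). Acacb did not pass with steatosis 2, steatosis 3, NASH 1 or NASH 2 omitted (0.0694 to 0.109). For the peroxisomal steps that shorten the last intermediate to docosahexaenoate, 2 of 10 genes fell and 0 rose, the other 8 not passing (median -0.89). These were Hsd17b4, the peroxisomal multifunctional enzyme, at -0.96 (adjusted p = 0.0343 by edgeR) and the transporter Abcd3 at -1.10 (adjusted p = 0.0394 by edgeR). Hsd17b4 did not pass with any 1 library omitted (adjusted p = 0.0541 to 0.118 by edgeR), nor Abcd3 with any but steatosis 3 omitted (0.0806 to 0.118). Hsd17b4 also missed with the block (0.0528) and when scaled to other genes (0.0508).

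On the list of acyl-CoA activation and phospholipid remodelling, 1 of 16 tested genes rose and 0 fell (median -0.33). It was Acsl3, an acyl-CoA synthetase, at 1.35 (adjusted p = 0.0259 by edgeR), which did not pass with steatosis 2, steatosis 3, NASH 1 or NASH 2 omitted (0.0556 to 0.1). Of 12 oxylipin enzymes 1 rose and 3 fell (median -0.25). Ptgds, a prostaglandin D synthase, was at 3.98 (adjusted p = 0.00554 by edgeR) from at most 0.420 CPM in steatosis, and Ephx1, Cyp2c29 and Hpgd were at -1.55, -1.37 and -0.89 (adjusted p = 0.0058, 0.0121 and 0.0488 by edgeR). Hpgd did not pass with any library but NASH 3 omitted (adjusted p = 0.0659 to 0.165 by edgeR), with the block (0.065), with DESeq2's size factors (0.0538) or upper-quartile factors (0.057), or when scaled to other genes (0.0783). None of the 4 tested ceramide synthases passed edgeR's test (median -0.15), and DESeq2 and limma-voom called 0. Of these 4, 1 was lower at an unadjusted p under 0.05 by edgeR.

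Of 17 regulators 2 rose, 0 fell and 15 did not pass (median 0.10). Insig1, a sterol-sensing retention protein and target of SREBP factors, rose by 1.75 on the log2 scale (adjusted p = 0.0104 by edgeR), and Tmem41b, a lipid scramblase of the endoplasmic reticulum, by 1.14 (adjusted p = 0.0448 by edgeR). Insig1 did not pass with steatosis 2 omitted (adjusted p = 0.0598 by edgeR), nor Tmem41b with any library but NASH 3 omitted (0.0745 to 0.134), with the block (0.054) or by limma-voom (0.0561). Log2 fold changes that did not pass were 0.82 for Srebf1 (SE 0.42, adjusted p = 0.269 by edgeR), -1.14 for Ppara (SE 0.29, adjusted p = 0.0543 by edgeR), -0.08 for Mlxipl (adjusted p = 0.879 by edgeR) and -0.01 for Nr1h3 (adjusted p = 0.977 by edgeR). Srebf1 measured 59.0, 52.0 and 17.5 CPM in steatosis and 90.8, 89.7 and 46.8 CPM in NASH, an overlap through NASH 3. Ppara had -1.33 and passed with steatosis 3 omitted (adjusted p = 0.0348 by edgeR), and DESeq2 and the fit with no filter called it as well (adjusted p = 0.0163 and 0.000132). The fit with no filter also called Srebf1 (adjusted p = 0.041).

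Most calls on these lists depended on single libraries. Of the 21 genes the naming rule took, 13 were no longer called with steatosis 1 omitted, 16 with steatosis 2, 10 with steatosis 3, 14 with NASH 1, 13 with NASH 2 and 8 with NASH 3. Acly, Ptgds, Ephx1 and Cyp2c29 passed in each of those 6 fits.

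The split of Elovl3 and Elovl5 within steatosis was set beside the other lists. Steatosis 1 exceeded both other steatosis libraries at least 2-fold for 143 of 11375 tested genes, or 1.26%, a share that ranged from 0.932% to 1.89% when the same was asked of each library within its group. Elovl3 and Elovl5 were the 2 of 9 members that did so. On the other lists Elovl6 did, as did Lpcat3, Acsl1 and Acsl5 of 16 activation and remodelling genes, Acaa1b among the peroxisomal genes, and the regulator Insig2. Lpcat3, which places polyunsaturated chains in phospholipids, measured 75.3, 25.4 and 25.8 CPM in steatosis and 31.6, 35.1 and 20.2 CPM in NASH. Every NASH library was lower than steatosis 1, by more than 2-fold. No clock gene (0 of 18 tested) and no male-biased liver gene (0 of 17) was at least 2-fold higher in steatosis 1 than in both other steatosis libraries.

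**Figure D5:**
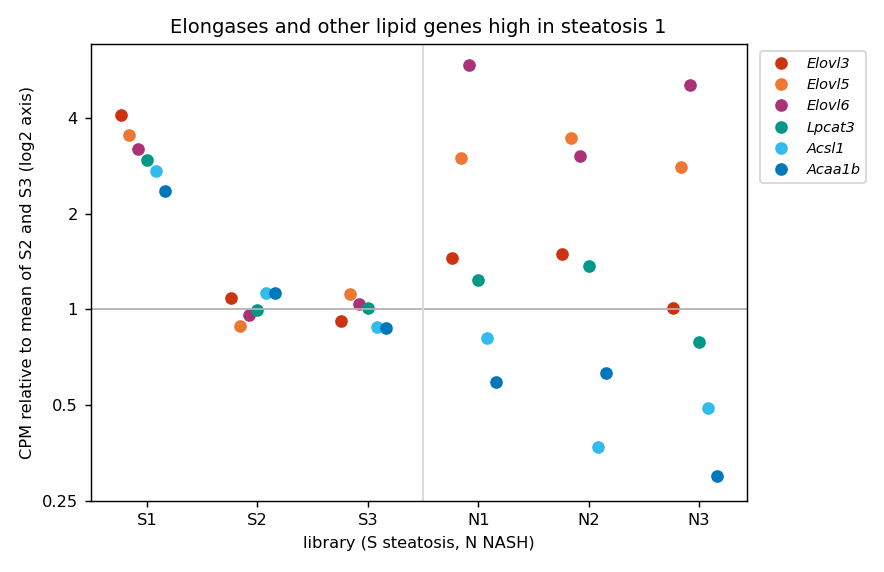
CPM of 6 genes relative to the mean of steatosis 2 and 3 (line at 1, log2 axis) in each library. All 6 are above 2 in steatosis 1; in NASH, Elovl5 and Elovl6 are near or above 3 in all libraries, Elovl3 and Lpcat3 lie around 1, and Acsl1 and Acaa1b are below 1.

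Across the 6 libraries, the 5 genes closest to Elovl3 among the 1904 tested whose mean log2 CPM reached 4 were Lpcat3, Lpin2, Fam20a, Ip6k2 and Trib1. The root mean square difference of their centred log2 CPM from that of Elovl3 was 0.19 to 0.33. Those closest to Fads2 were Metap1d, Ass1, Selenok, Rrbp1 and Atxn2, at 0.14 to 0.19. Of these Rrbp1 was itself called higher (log2 fold change 0.97, adjusted p = 0.0314 by edgeR), but not with any 1 library omitted (adjusted p = 0.0592 to 0.133 by edgeR).

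Elovl3 is known in mouse liver for its daily rhythm and its male bias, so both lists were examined. Of 18 clock genes 1 rose and 2 fell (median log2 fold change -0.10). Nr1d1, a repressor of the clock, had 1.76 and Hlf, a clock output factor, -1.07 (adjusted p = 0.034 and 0.0425 by edgeR). With 1 library omitted, Nr1d1 passed only where that was NASH 1, and Hlf in no case (adjusted p = 0.0512 to 0.104 and 0.0635 to 0.138 by edgeR where they did not). Hlf also missed with upper-quartile factors (0.0507) and when scaled to other genes (0.0714). Of 17 male-biased genes 3 rose and 0 fell (median 0.01). These were Selenbp2 at 2.43, C6 at 1.17 and Hsd3b5 at 4.56 (adjusted p = 0.0275, 0.0314 and 0.0448 by edgeR), and Hsd3b5 held 0.201 CPM in NASH 2 against 7.71 and 13.9 CPM in the other two. Selenbp2 passed with steatosis 3 or NASH 2 omitted, C6 with steatosis 1 omitted and Hsd3b5 with NASH 2 omitted, and not otherwise (adjusted p = 0.0643 to 0.0764, 0.0686 to 0.133 and 0.0924 to 0.15 by edgeR). Hsd3b5 had 3.48 with an SE of 2.08 in limma-voom (adjusted p = 0.347), did not pass with the block (0.0632) and was not among the genes left by the stricter filter. The part of either list in the values of Elovl3 was not tested.

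In bulk liver, fewer cells of a type and less RNA per cell cannot be told apart, and marker lists gave the following background. Hepatocyte markers (9 of 10 found) summed to 11407 to 12200 CPM in steatosis and 9582 to 11612 CPM in NASH, with 0 of 9 called by edgeR (1 higher at an unadjusted p under 0.05). Endothelial markers summed to 97.9 to 131 CPM in steatosis and 148 to 203 CPM in NASH, with 0 of 11 called by edgeR and 4 higher at an unadjusted p under 0.05. Macrophage markers spanned 60.6 to 66.3 and 56.3 to 93.2 CPM (0 of 14 called, 1 higher unadjusted) and lymphocyte markers 1.30 to 3.24 and 1.54 to 2.85 CPM (0 of 1, also unadjusted), with Gzma at 0 in every library. Stellate markers spanned 77.8 to 89.1 and 55.1 to 73.1 CPM, with 1 of 11 lower (Dcn, chosen after its value was seen and not passing with any 1 library omitted, adjusted p = 0.0584 to 0.115 by edgeR), and cholangiocyte markers 24.2 to 42.1 and 12.5 to 23.3 CPM, with 0 of 3 called (1 lower unadjusted). DESeq2 called 1 hepatocyte and 1 endothelial marker higher and 0 of the macrophage, lymphocyte and cholangiocyte markers, and limma-voom 0 of these 5 lists. Adipocyte markers spanned 1129 to 2056 and 549 to 979 CPM with 1 of 4 lower (Car3, likewise chosen, which hepatocytes also express), while Adipoq, Plin1 and Lep were at 0 in every library. The part of endothelial or stellate RNA in the differences of Fads1, Fads2 and Hacd3 was not tested.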

How the data were processed

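RNA was measured in liver of 6 mice, 3 with steatosis and 3 with NASH. The authors deposited raw counts of reads per Ensembl gene, not normalized, from paired 150 bp reads per the labels' protocols. Alignment with TopHat2 and counting with HTSeq on mm10 (GRCm38) are named in the submitters' processing notes, with no versions. The sources used here do not give the annotation release, the strand setting or how shared reads were treated. A symbol was found for 37607 of 39179 identifiers. Exon lengths and coordinates are from GENCODE M21, so lengths may differ from those counted.

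Counts were fitted in R 4.3.3 with edgeR 4.0.16 (default filter, TMM, quasi-likelihood test, Benjamini-Hochberg over all tested genes, call at 0.05). SEs were derived from the estimate and its F value, an approximation. The test was also run on counts simulated from its own fit. Such counts meet the model by construction, so they do not check it on real libraries. Ratios within libraries were tested by exact permutation, two-sided.

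The members and lists were chosen with earlier results of these data known. Named were the 9 members, up to 4 called genes with the smallest p per list, 8 set genes (Scd1, Elovl6, Hsd17b12, Srebf1, Mlxipl, Ppara, Nr1h3 and Insig1), neighbours, and the 5 nearest profiles of Fads2 and Elovl3. Other genes were chosen after their values were seen, and some tested genes are not reported here. Alternatives were DESeq2 1.42.0, limma-voom (limma 3.58.1), other scalings and filters, a replicate block and libraries left out. With numbers shared by the groups, deviations of same-numbered libraries correlated at 0.035, -0.012 and 0.071, so the numbers were not taken as pairs.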

Additional observations from a re-analysis of the deposited data

How the results depend on the processing

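The count of members called higher was 2 with DESeq2, with counts scaled to other genes without TMM and with no filter, 1 in the other fits of all 6 libraries, 0 to 1 with single libraries left out, and 0 without steatosis 2 and NASH 3, the libraries rich in rRNA-like reads. The 1 member called without steatosis 1 was Elovl5, so the same count there is a different gene. No member was called lower in any of the 15 alternatives. Over all genes 548 were called (169 higher, 379 lower), against 851 with DESeq2 (297 and 554), 1447 with no filter (535 and 912), 401 with counts scaled to other genes (179 and 222), 36 (17 and 19) without steatosis 2 and NASH 3, and 114 to 468 (29 to 170 higher, 77 to 298 lower) with single libraries left out. Fits with fewer libraries have less power by construction. DESeq2 called more genes than edgeR on several lists, with 3 higher and 1 lower of the other desaturation and elongation enzymes, 5 lower of the peroxisomal genes, 1 higher and 3 lower of the activation and remodelling genes, 2 higher and 4 lower of the oxylipin enzymes, 2 higher and 1 lower of the regulators, and 4 higher and 1 lower of the male-biased genes.

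Elovl3 had a log2 fold change of 0.41 without steatosis 1, and -0.95 to 0.41 over single libraries left out. Mlxipl was at 0.01 when scaled to other genes, and -0.19 to 0.10 with single libraries left out. Nr1h3, close to 0 throughout, was at 0.00 with limma-voom, with DESeq2's size factors and with the block, 0.02 with upper-quartile factors, 0.08 when scaled to other genes, 0.07 without steatosis 2 and NASH 3, and -0.17 to 0.12 with single libraries left out. The difference of the Elovl1 over Elovl5 ratio was -1.13 to 0.23 with single libraries left out (above 0 without steatosis 2, steatosis 3 or NASH 2), and that of Scd2 over Scd1 was -1.43 to 0.70 (above 0 without NASH 3). The cause was not tested.

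With the replicate number as a block, 466 genes and 1 member, Fads2, were called (log2 fold change 0.97). Of the 21 list genes the naming rule took, 16 passed with the block and 5 did not, Acss2, Hsd17b4, Hpgd, Tmem41b and Hsd3b5 (adjusted p = 0.0518, 0.0528, 0.065, 0.054 and 0.0632 by edgeR). The correlations of same-numbered libraries, each under 0.1, give no sign of pairing. Depth limits Scd2, which rests on 3 to 90 counts per library.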
